A study of Arabidopsis thaliana with 8 samples.

Results

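In Arabidopsis thaliana, 10 of the 32678 genes counted were chosen by gene identifier as genes of salicylic acid signalling and systemic immunity: SARD1 (AT1G73805), ICS1 (AT1G74710), EDS5 (AT4G39030), EDS1 (AT3G48090), PAD4 (AT3G52430), ALD1 (AT2G13810), FMO1 (AT1G19250), PR1 (AT2G14610), PR2 (AT3G57260) and PR5 (AT1G75040). All 10 passed the filter on low counts. RNA had been sequenced from whole plants of 4 lines without salt (0 mM NaCl) and with 75 mM NaCl, each combination giving a single library, so that there were 8 libraries. Col-0 was the wild type. The empty vector control, called the VP16-only line below and Empty vector in the plots, expressed nothing but VP16, a transcriptional activation domain from herpes simplex virus, and T31-5 and T43-11 expressed VP16 fused to a protein called 3F and were labelled as salinity tolerant. Every line other than Col-0 therefore carried VP16. The labels do not give the promoter of the transgenes, the age of the plants, the length of the salt treatment, the number of plants pooled or whether a line is 1 insertion event.

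Salicylic acid is the hormone with which plants hold off pathogens that feed on living tissue. The chloroplast enzyme ICS1 makes its precursor isochorismate, and the transporter EDS5 moves that precursor out of the chloroplast. The lipase-like proteins EDS1 and PAD4 act together downstream of immune receptors and promote its accumulation. The transcription factor SARD1 activates ICS1 and also the genes of N-hydroxypipecolic acid, the signal of systemic acquired resistance, for which ALD1 catalyses the first step and FMO1 the last. PR1, PR2 (a beta-1,3-glucanase) and PR5 (a thaumatin-like protein) are secreted proteins whose transcripts serve as the usual readout of the pathway.

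Promoters are shown for 3 genes that differ in the pattern of their levels: SARD1, which spread widely over the libraries, FMO1, the gene that passed a test of the salt response, and ICS1, which was nearly level. Each sequence is the 250 bases upstream of the annotated start, 5′ to 3′ on the strand of the gene, from the RefSeq assembly TAIR10.1 with its own annotation. SARD1 is on chromosome 1 (chr1:27749249-27749498, minus strand), FMO1 on chromosome 1 (chr1:6653196-6653445, minus strand) and ICS1 on chromosome 1 (chr1:28070045-28070294, plus strand). Capitals mark the W box core TTGAC, which WRKY factors bind, and the element GAAATTT, which SARD1 and its relative CBP60g bind, on either strand (GTCAA and AAATTTC are the reverse complements).
SARD1: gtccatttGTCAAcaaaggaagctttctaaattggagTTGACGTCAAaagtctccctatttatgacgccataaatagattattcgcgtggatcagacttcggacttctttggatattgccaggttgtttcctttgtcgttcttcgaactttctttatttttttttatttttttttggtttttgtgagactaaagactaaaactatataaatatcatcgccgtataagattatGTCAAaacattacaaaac
FMO1: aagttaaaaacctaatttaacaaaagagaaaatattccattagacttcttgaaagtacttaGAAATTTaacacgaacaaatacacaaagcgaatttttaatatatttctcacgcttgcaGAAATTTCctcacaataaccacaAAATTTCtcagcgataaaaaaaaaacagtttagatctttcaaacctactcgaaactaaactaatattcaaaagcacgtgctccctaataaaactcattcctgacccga
ICS1: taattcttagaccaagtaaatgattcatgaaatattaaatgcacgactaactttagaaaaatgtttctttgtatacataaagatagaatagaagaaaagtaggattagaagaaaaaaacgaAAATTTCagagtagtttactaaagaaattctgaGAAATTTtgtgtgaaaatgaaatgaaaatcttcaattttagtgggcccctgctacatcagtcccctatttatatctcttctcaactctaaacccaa
The SARD1 promoter held 4 matches to TTGAC and 3 to TGACG, the core bound by TGA factors, and matches of the 2 motifs overlapped each other in 4 pairs. PR5 and EDS1 held 1 match to TTGAC each, EDS5 held 2, and ICS1, PR2, PAD4, FMO1 and ALD1 held 0. GAAATTT had 4 matches in FMO1, 2 in ICS1 and 2 in ALD1, some of them overlapping each other. CGCG, the core bound by calmodulin-binding CAMTA factors, had 1 match each in SARD1 and PR5. Among 27443 promoters of the same length, TTGAC was present in 44.9%, TGACG in 18.6%, GAAATTT in 12.5% and CGCG in 10.1%. A match describes these letters and is not a measured binding site.

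Reads assigned to genes ranged from 13007480 in Col-0 at 75 mM to 22820814 in T31-5 at 75 mM. Levels are CPM, counts scaled to a common library size with TMM factors, with exact 95% Poisson intervals that cover counting error only, and 3 reads corresponded to 0.124 to 0.231 CPM. There were 2 pairs of nearly equal libraries. The mean chi-square per gene, which counting noise alone would put near 1, was 1.42 between T43-11 at 0 and at 75 mM and 1.44 between the VP16-only line and T31-5 at 0 mM, against 63.3 between the salt levels of Col-0, 50.5 in the VP16-only line and 50.5 in T31-5. At 75 mM the VP16-only line and T31-5 gave 7.68. Each table also carried an added row named T31, at 4.88 and 2.94 CPM of gene reads in T31-5 at 0 and 75 mM and at 4.44 and 3.12 in the VP16-only line, so that row did not tell these lines apart. The row was at 26.8 and 27.7 in T43-11 and had 0 reads in Col-0. Whether the labels of T31-5 and of the nearly equal libraries are right was not tested, and line names below, also in comparisons without salt, mean the libraries labelled so. Calls that change without T43-11 are given with and without it, and the effect of leaving out or summing the VP16-only line and T31-5 is given per comparison. Summed markers of leaf were 43436 to 50311 CPM at 0 mM in Col-0, the VP16-only line and T31-5 and 30996 to 32680 CPM in the other libraries. Root markers summed to 1199 to 1292 CPM and to 1552 to 2233 CPM in the same split, nearly all of it PYK10. RHD6 and NRT2.1 followed that split, but CASP1 went from 6.18 to 3.32 CPM with salt in Col-0. All 4 genes of both lists were detected in every library. Flower markers summed to 2.60 to 17.8 CPM, with up to 3 of 4 at 0. Most of that was PI, highest in Col-0 at 17.5 and 14.8 CPM. AP1 was at 0.666 and 0.810 CPM (12 and 17 reads) in the VP16-only line and T31-5 without salt. Elsewhere AP1 was at most 0.103 CPM. Their part in the results below was not tested.

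Per kilobase of exon, mean levels over the libraries ranked PR2 first at 16.2 CPM per kb, followed by ICS1 at 9.06, EDS1 at 8.33, PR5 at 7.38, PAD4 at 7.18, PR1 at 5.08, EDS5 at 2.77, SARD1 at 2.29, FMO1 at 0.865 and ALD1 at 0.414. The genes differed far more in how much they varied. The highest library exceeded the lowest 89.1-fold for PR1, 56.0-fold for PR2, 30.2-fold for ALD1 and 16.2-fold for SARD1. The ratio was 7.82 for PR5 and 6.71 for FMO1, and 1.35 to 2.04 for EDS5, EDS1, PAD4 and ICS1. In whole plants, fewer cells expressing a gene and less RNA per cell cannot be told apart.

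**Figure D1:**
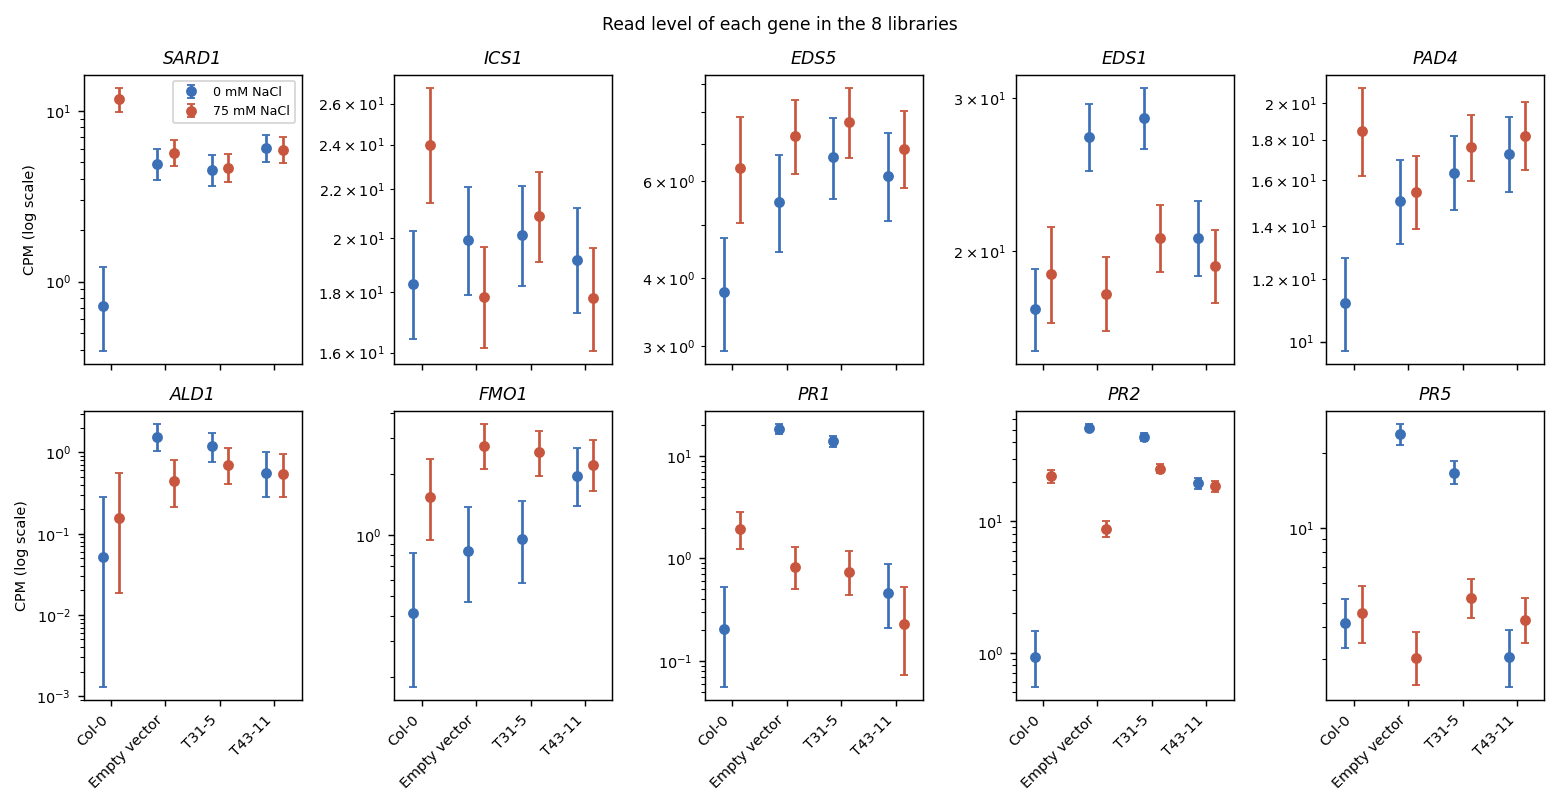
Level of each gene in CPM (log scale, a different range in each panel) in the 4 lines, blue at 0 mM and red at 75 mM NaCl, with exact 95% Poisson intervals of the single library. PR1 reached 18.4 and 13.9 CPM in the VP16-only line and T31-5 without salt and was at most 1.93 CPM elsewhere, SARD1 was lowest in Col-0 without salt and highest in Col-0 with salt, and ICS1 stayed between 17.8 and 24.0 CPM.

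Among the regulators and enzymes of salicylic acid synthesis, SARD1 separated Col-0 from the lines with VP16 by the widest margin. In Col-0 it was at 0.721 CPM (0.394 to 1.21) without salt and 11.7 CPM (9.87 to 13.7) with it. The VP16-only line had 4.88 and 5.67 CPM, T31-5 had 4.48 and 4.63 CPM, and T43-11 had 6.03 and 5.91 CPM, without and with salt. Col-0 thus gave both the lowest and the highest library, and neither of its intervals overlapped that of any other library. The annotated span of SARD1 overlaps that of AT1G73790 on the opposite strand, by a length that was not measured. Without stated strand use, reads from the overlapping stretch cannot be assigned to either of the 2 genes.

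ICS1, the enzyme that SARD1 activates, was at 18.3 and 24.0 CPM in Col-0 without and with salt. It was at 19.9 and 17.8 CPM in the VP16-only line, at 20.1 and 20.9 CPM in T31-5 and at 19.2 and 17.8 CPM in T43-11. Ordered by level, every library overlapped its neighbour in the Poisson interval, but the ends of the order did not overlap. Col-0 with salt (21.4 to 26.8 CPM) lay clear of Col-0 without salt (16.4 to 20.3 CPM). It also lay clear of both T43-11 libraries and of the VP16-only line with salt, and overlapped the other libraries. EDS5 ran from 3.76 CPM in Col-0 without salt to 7.69 CPM in T31-5 with salt, and it overlaps AT4G39040 on the opposite strand. EDS1 was at 27.1 and 28.5 CPM in the VP16-only line and T31-5 without salt and between 17.2 and 20.7 CPM in the other libraries. Of the 50-base windows of EDS1, 0.903% also occur in the neighbouring genes AT3G48070 and AT3G48080, so few of its reads could be shared with a copy. PAD4, its partner, was lowest in Col-0 without salt at 11.2 CPM and between 15.04 and 18.4 CPM elsewhere, highest in Col-0 with salt. Its lowest library did not overlap the next in the Poisson interval, and its highest did. In order of level, PAD4, ICS1 and PR1 in Col-0 also lay below all 3 other lines without salt and above all 3 with salt. Unlike for SARD1, the Poisson interval of Col-0 overlapped those of all 3 other lines for ICS1 without salt and PAD4 with salt. For PR1 it overlapped that of T43-11 without salt and that of the VP16-only line with salt. The share of all genes with this order was not counted.

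The enzymes of N-hydroxypipecolic acid were the least abundant. ALD1 had 1 read in Col-0 without salt and 2 with it, 28 and 10 reads in the VP16-only line, 25 and 17 reads in T31-5, and 11 and 12 reads in T43-11. FMO1 was at 0.412 CPM in Col-0, 0.832 CPM in the VP16-only line, 0.953 CPM in T31-5 and 1.96 CPM in T43-11 without salt. With salt these levels were 1.54, 2.77, 2.56 and 2.23 CPM. The log2 ratio of FMO1 with salt was 1.68, 1.62, 1.34 and 0.18 in that order, from 8 and 20 reads in Col-0. In T43-11, whose libraries were nearly equal, the Poisson intervals overlapped (1.39 to 2.69 CPM without and 1.65 to 2.95 CPM with salt). They did not overlap in the other lines.

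The pathogenesis-related genes were high without salt in the VP16-only line and T31-5. PR1 was at 18.4 CPM (16.4 to 20.5) and 13.9 CPM (12.3 to 15.6) there, from 331 and 291 reads. It was at 0.206 CPM in Col-0 and 0.464 CPM in T43-11 without salt, from 4 and 9 reads. With salt it was at 1.93 CPM in Col-0, 0.834 CPM in the VP16-only line, 0.744 CPM in T31-5 and 0.227 CPM in T43-11. T43-11 without salt lay within the range of the salted libraries for PR1, and as a whole was nearly equal to T43-11 with salt. PR5 had the same highest libraries, at 23.7 and 16.6 CPM, with the other 6 between 3.03 and 5.25 CPM. PR2 was also highest in these libraries, at 51.9 and 44.2 CPM. Its level in Col-0 was 0.927 CPM (0.550 to 1.47) without salt and 22.1 CPM (19.7 to 24.9) with salt, in the VP16-only line with salt 8.83 CPM, in T31-5 with salt 25.2 CPM, and in T43-11 19.5 and 18.6 CPM. T43-11 without salt lay above Col-0 by a log2 ratio of 4.25 for PR2 and 0.88 for PR1, and at -0.44 for PR5.

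The salt response differed in sign between lines for several genes. In Col-0 all 10 genes had a positive log2 ratio of 75 against 0 mM, with a median of 0.74. That of the 12067 genes averaging 10 CPM or more was -0.0047, and the share of all genes above 0 was not counted. For ALD1, PR5 and EDS1 the Poisson intervals of the 2 Col-0 libraries overlapped. Of the 10 genes, 4 were at least 2-fold higher: PR2 by 4.44, SARD1 by 3.84, PR1 by 2.73 and FMO1 by 1.68. Of all 20585 genes tested, 6.24% were at least 2-fold higher in that comparison. In the VP16-only line PR1 stood at -4.30, PR5 at -2.93, PR2 at -2.54 and ALD1 at -1.62, where 3.36% of all genes were at least 2-fold lower, and FMO1 alone was at least 2-fold higher, where 5.87% of all genes were. T31-5 had PR1 at -4.05 and PR5 at -1.65, against 2.91% of all genes at least 2-fold lower, and FMO1 at least 2-fold higher, against 5.55%. In T43-11 no gene of the 10 reached 2-fold, where 0.355% of all genes were at least 2-fold higher and 0.311% lower. Each ratio compares 1 library with 1 and has no replicate check.

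**Figure D2:**
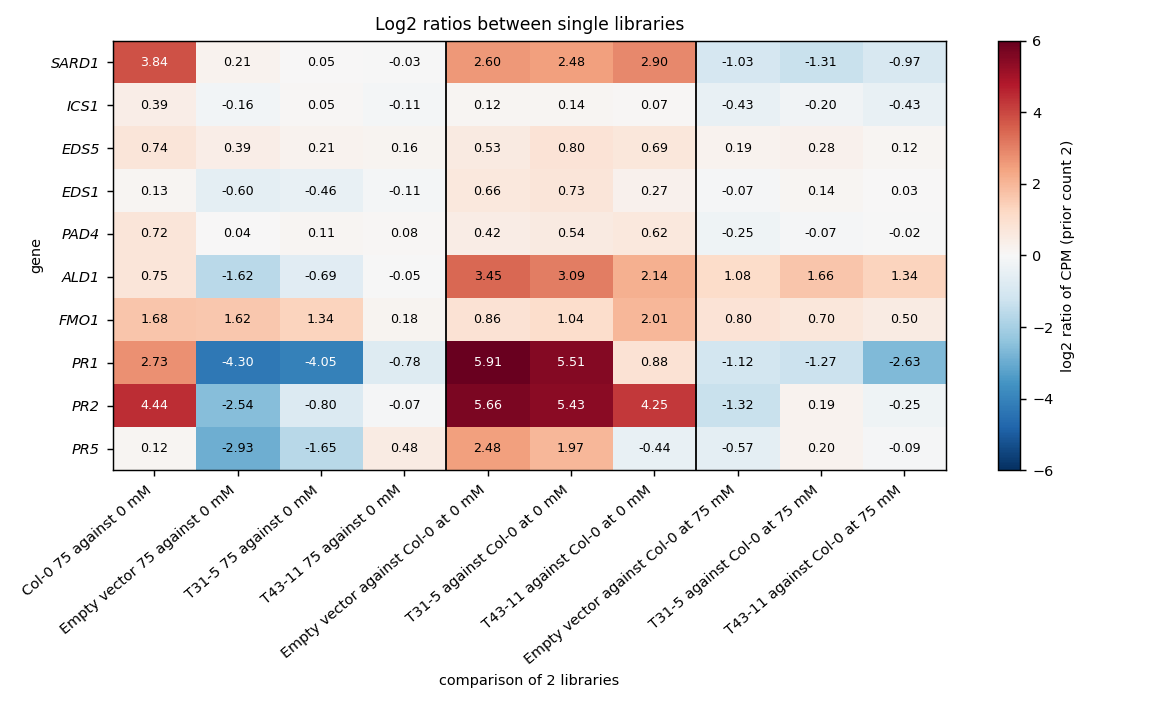
Log2 ratios of CPM between single libraries (prior count of 2) for each gene (rows) in the 10 comparisons (columns), red for higher and blue for lower. Salt ratios of PR1 were 2.73 in Col-0 and -4.30 and -4.05 in the VP16-only line and T31-5, and ICS1 stayed within 0.43 of 0 throughout.

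Tested with line as a block over all 4 lines in edgeR's quasi-likelihood test with Benjamini-Hochberg adjustment, none of the 10 genes passed 0.05, with 2 at an unadjusted p under 0.05 (FMO1 and EDS5). The share of all genes passing was 0%. At an unadjusted p under 0.05, 3135 of all 20585 genes were higher and 2871 lower. DESeq2 passed FMO1 with an adjusted p of 0.048, where 9.85% of all genes passed. In Col-0, the VP16-only line and T31-5, without T43-11, FMO1 rose by a log2 fold change of 1.62 ± 0.26 (SE, 3 of 3 lines higher, edgeR adjusted p = 0.00608), where 29.8% of all genes passed in either direction. Without the VP16-only line the adjusted p was 0.0669, where 9.99% of all genes passed. The other 9 genes did not pass. PR1 gave -3.07 ± 1.48 (adjusted p = 0.215) over these lines, SARD1 1.07 ± 0.85 (0.408) and PR2 -0.42 ± 1.39 (0.847). Without Col-0 as well, which leaves the VP16-only line and T31-5, 5 genes passed: PR1 at -4.37, PR5 at -2.29, ALD1 at -1.27, EDS1 at -0.56 and FMO1 at 1.54, while 38.6% of all genes passed in the same fit. These 2 lines were nearly equal at 0 mM, so their spread may be too small to stand for that between independent lines.

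The other genes of the pathway, 45 of 48 of which had enough reads to test, gave 7 higher and 7 lower with salt in the 3 lines, which is near the 29.8% of all genes that passed there. AZI1, a lipid transfer-like protein of systemic priming, rose by 1.27 ± 0.09 (adjusted p = 0.000532) and UGT76B1, a glycosyltransferase acting on immune signals, by 0.72 ± 0.09 (0.00229). DIR1, a lipid transfer protein of long-distance signalling, fell by 1.28 ± 0.12 (0.00129) and PAL2, a phenylalanine ammonia-lyase of the other route to salicylic acid, by 0.55 ± 0.06 (0.00137). The median of the 45 was 0.06, and that of all genes tested 0.01. With the VP16-only line and T31-5 summed the counts were 5 higher and 4 lower, where 1215 of all 20585 genes were higher and 1563 lower. Without the VP16-only line they were 2 higher and 4 lower, where 828 and 1228 of all 20585 genes were. AZI1, UGT76B1, DIR1 and PAL2 passed in both of these fits and without T31-5. None of the 45 passed over all 4 lines.

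Without salt, every one of the 10 genes had a positive log2 fold change in the lines with VP16 against Col-0. The VP16-only line had 5 at least 2-fold higher: PR1 by 5.91, PR2 by 5.66, ALD1 by 3.45, SARD1 by 2.60 and PR5 by 2.48, where 3.38% of all genes were. T31-5 had these 5 and FMO1, against 3.14% of all genes. T43-11 had PR2 by 4.25, SARD1 by 2.90, ALD1 by 2.14 and FMO1 by 2.01, against 9.99%, with PR1 at 0.88 and PR5 at -0.44. Col-0 was below all 3 other lines for 9 of the 10 genes, the exception being PR5. The share of all genes for which Col-0 was lowest was not counted, and 2 of the 3 other libraries were nearly equal.

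Over the 3 lines, none of the 10 passed edgeR's test, where 0.034% of all genes did. SARD1 came nearest at 2.82 ± 0.33 (adjusted p = 0.0589), followed by PR2 at 5.37 ± 1.04 (0.175) and ALD1 at 4.26 ± 1.03 (0.218), with Col-0 as a single library assumed to vary like the rest. PR1 was at 5.69 ± 2.28 (0.326) and ICS1 at 0.11 ± 0.13 (0.662). In Col-0 ALD1 rests on 1 read, so its CPM ratios to Col-0 have wide counting intervals: 30.2 (4.99 to 1234) in the VP16-only line, 23.1 (3.79 to 949.8) in T31-5 and 11.0 (1.60 to 473.6) in T43-11. The median of the 10 was 1.69 and that of all genes 0.03. Of the 10, 8 had an unadjusted p under 0.05 in edgeR. Among all 20585 genes, 1474 were higher and 1537 lower at that p. DESeq2 passed PR2 and SARD1 (adjusted p = 1.36e-06 and 8.95e-06), where 1.26% of all genes passed. Without T43-11, edgeR passed PR1 at 6.25, ALD1 at 4.58, SARD1 at 2.70, EDS1 at 0.71 and PAD4 at 0.50, where 10.6% of all genes passed and the nearly equal libraries of the VP16-only line and T31-5 set the spread. Without the VP16-only line, without T31-5 or with both summed, 0 of the 10 passed, where 0 of all 20585 genes did. SARD1 was then at 2.86, 2.91 and 2.88, and its adjusted p was 0.525, 0.505 and 0.526.

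**Figure D3:**
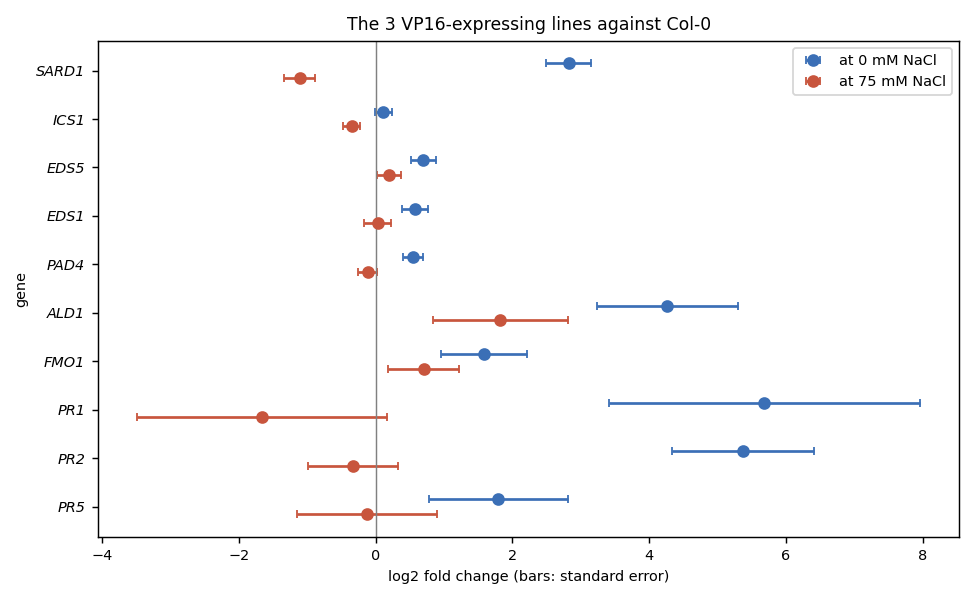
Log2 fold change of the 3 lines expressing VP16 against Col-0 for each gene from edgeR, with standard errors as bars, blue at 0 mM and red at 75 mM NaCl. At 0 mM every point lies above 0, from 0.11 for ICS1 to 5.69 for PR1, and at 75 mM 4 lie above and 6 below, while none passed the adjusted threshold.

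With salt, the lines were closer to Col-0. ALD1 was at least 2-fold higher than in Col-0 in each line, by 1.08, 1.66 and 1.34 in the VP16-only line, T31-5 and T43-11, where 5.44%, 7.07% and 6.35% of all genes were. PR1, PR2 and SARD1 were at least 2-fold lower in the VP16-only line (0.758% of all genes), PR1 and SARD1 in T31-5 (2.18%) and PR1 in T43-11 (1.77%). The ALD1 values rest on 2 reads in Col-0, and the counting interval of the CPM ratio was 0.607 to 26.7 in the VP16-only line, 1.08 to 40.6 in T31-5 and 0.787 to 32.5 in T43-11. No gene of the 10 passed over the 3 lines in edgeR, where 0.0146% of all genes did. SARD1 gave -1.11 ± 0.22 (adjusted p = 0.139) and passed in DESeq2 (adjusted p = 0.032), where 2.21% of all genes passed. Without T43-11, SARD1 at -1.21 and PR1 at -1.32 passed in edgeR, where 14.4% of all genes did and the spread again came from the VP16-only line and T31-5. Without either of these lines, or with both summed, 0 of the 10 passed, where 0 of all 20585 genes did.

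The difference in salt response between the lines with VP16 and Col-0 was fitted directly, with line as a block. All 10 estimates were negative, with a median of -1.23 against 0.02 for all genes, and none passed in edgeR, where 0% of all genes did. SARD1 was at -3.93 ± 0.34 (unadjusted p = 5.54e-05 in edgeR, adjusted p = 0.211), PR1 at -7.19 ± 1.18 (0.456 adjusted) and PR2 at -5.69 ± 1.2 (0.564 adjusted). Of the 10, 5 had an unadjusted p under 0.05 in edgeR. Among all 20585 genes, 661 were higher and 776 lower at that p. DESeq2 passed SARD1, PR1 and PR2, where 0.281% of all genes passed. Without T43-11, edgeR passed PR1 at -7.57, SARD1 at -3.92 and EDS1 at -0.71, where 3.98% of all genes passed. With the VP16-only line or T31-5 left out, or both summed, 0 of the 10 passed, where 0 of all 20585 genes did. Both comparisons with Col-0 above enter this difference, so its sign is not separate evidence.

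Of the other pathway genes, 0 of 45 passed in any of these 3 fits. The genes with the smallest p without salt were CBP60G, the partner of SARD1, at 1.21 ± 0.19 (edgeR adjusted p = 0.117), WAK1, a wall-associated kinase induced by salicylic acid, at 2.05 ± 0.35 (0.154), PBS3, the enzyme that conjugates isochorismate to glutamate, at 2.58 ± 0.47 (0.167) and DMR6, a salicylic acid hydroxylase, at 0.65 ± 0.13 (0.183). PBS3 was at 0.618 CPM in Col-0 without salt and between 3.14 and 5.87 CPM in the other 7 libraries. CBP60G was likewise lowest there, at 3.81 CPM, and highest in Col-0 with salt at 11.3 CPM. With salt, the genes with the smallest p were UGT74F2 at -0.81, NUDT6 at -1.35, DMR6 at -0.46 and AT3G48080 at 0.77. For the difference of salt responses they were DMR6 at -1.11, WAK1 at -2.37, CBP60G at -1.54 and PBS3 at -2.54. In the VP16-only line 10 of the 45 were at least 2-fold higher than in Col-0 without salt and 0 lower, against 3.38% and 0.933% of all genes. The list of salicylic acid output genes had 7 of 7 tested members above 0 in the lines with VP16 without salt, with a median of 1.28, and the list of synthesis genes 3 of 7, with a median of -0.19. WRKY70, a factor induced by salicylic acid and singled out after its values were seen, was at 23.2 and 24.1 CPM in the VP16-only line and T31-5 without salt and between 7.01 and 9.72 CPM in the other 6 libraries.

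**Figure D4:**
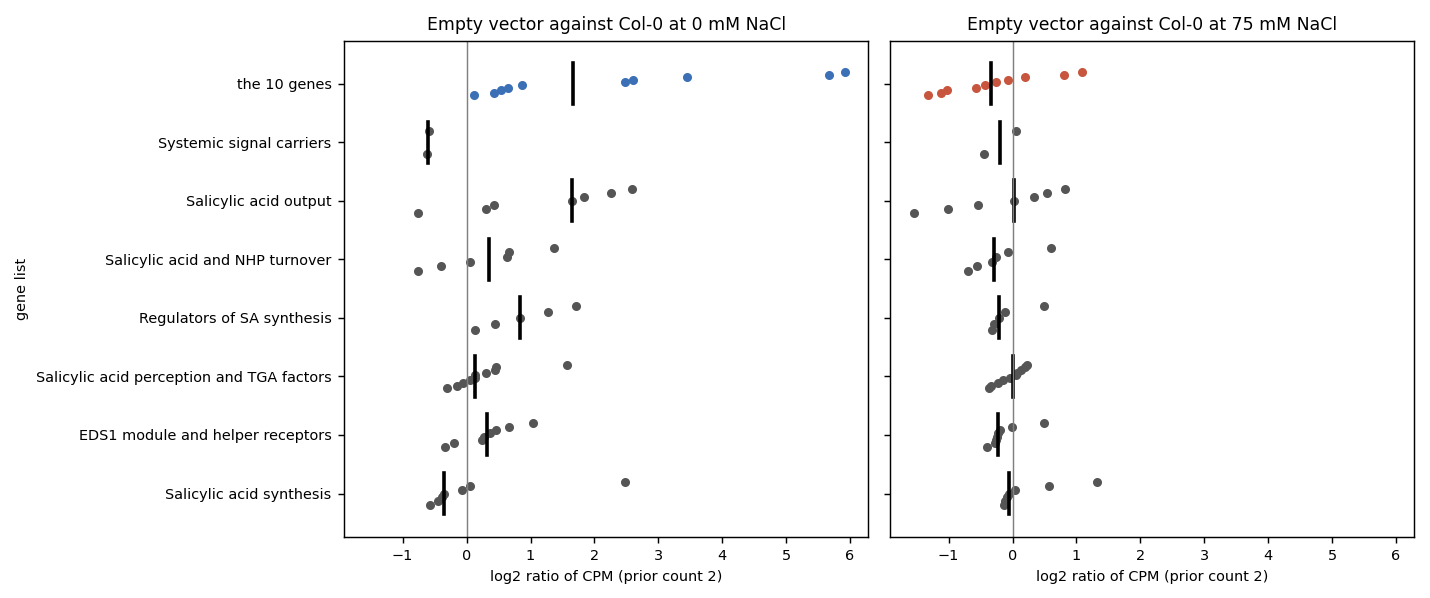
Log2 ratios of the VP16-only line against Col-0 (prior count of 2) for the tested genes of each pathway list (grey) and the 10 genes (coloured), at 0 mM on the left and 75 mM on the right, with black bars at the medians. At 0 mM the 10 genes have a median of 1.67 and the output list 1.65, while the synthesis list has -0.35; at 75 mM the median of the 10 is -0.34.

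Set by the labels, the 3F-VP16 lines T31-5 and T43-11 were compared with Col-0 and the VP16-only line. Over both salt levels, at 0 mM and at 75 mM, 0 of the 10 genes passed in edgeR, 0 had an unadjusted p under 0.05, and 0%, 0% and 0% of all genes passed. At that unadjusted p, 511, 661 and 359 of all 20585 genes were higher and 334, 432 and 372 lower. PR1 gave -0.41 ± 1.34 over both salt levels, -0.36 ± 1.56 at 0 mM and -1.39 ± 2.23 at 75 mM. FMO1 gave 0.48 ± 0.41, 1.22 ± 0.54 and 0.12 ± 0.46, and PAD4 0.24 ± 0.10, 0.36 ± 0.17 and 0.08 ± 0.17. Within each class the lines were far apart: without salt PR1 was at 0.206 and 18.4 CPM in the control lines and at 13.9 and 0.464 CPM in the 3F-VP16 lines. DESeq2 also passed 0 of the 10 genes in these fits, where 0.136%, 0% and 0.0874% of all genes passed. Of the other pathway genes 0 of 45 passed, the smallest p over both salt levels being that of PRB1, a basic relative of PR1, at 1.37 ± 0.37 (edgeR adjusted p = 0.70).

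Genes whose levels over the 8 libraries were most like those of PR1 and ICS1 were sought among 14790 genes averaging 5 CPM or more, by Pearson correlation of log2(CPM + 1), as a description. For PR1 they were AT4G36500 (r = 0.993), PCR1 (0.989), CRK10, a receptor-like kinase (0.979), GG1, a G protein gamma subunit (0.976), and AT2G25510 (0.976). For ICS1 they were AT5G51730 (0.961), VLN3, a villin (0.957), AT4G03115 (0.947), AT1G51580 (0.941) and SPL14, a transcription factor (0.912). The libraries share lines and salt levels, and 2 of them lie far above the rest for PR1.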

How the data were processed

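The authors deposited raw counts, a file to a library, made with TopHat2 2.0.5 and HTSeq on TAIR10, per the submitters' processing notes; counting mode, strand use and annotation release: not given in the sources used here. Summary rows (2.49 to 2.60% of reads) and the added rows T31 and T43 entered neither library sizes nor tests. Genes were tested with the quasi-likelihood test of edgeR 4.0.16 in R 4.3.3 (TMM factors, robust fit), from the deposited counts, on 20585 genes with at least 0.468 CPM in 2 libraries, Benjamini-Hochberg adjustment over all of them and a threshold of 0.05; the scripts were tested on simulated data. Lines were the replicates, and in salt fits line was a block, pairing both salt levels of a line. Nothing says that libraries came from separate cultures, and the p-values reflect the spread among the samples at hand, which may be technical. Single libraries were compared as log2 ratios with a prior count of 2. Alternatives were RLE factors, DESeq2 1.42.0, no filter, each line left out, no block, a prior count of 5, and the VP16-only line summed with T31-5, the last partly added after seeing the data. The background shares of single-library ratios were taken over all 20585 tested genes, also chosen after seeing the data, in place of genes averaging 10 CPM or more, which hold 4 of the 10. All 10 genes were tested in every comparison, but in several comparisons estimates are printed for only some of them. Up to 4 other pathway genes were named by smallest p. The genes and lists were chosen with earlier results of these data known. Names came from RefSeq TAIR10.1; Python 3.11.15, pandas 2.3.3 and matplotlib 3.10.9 were used. A further promoter is not reported here.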

Additional observations from a re-analysis of the deposited data

Results flagged for a closer look

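For 4 genes the salt ratio of Col-0 had the opposite sign to that of all 3 lines with VP16. The share of all genes with such opposite signs was not counted. The difference in salt response was -7.19 for PR1, -5.69 for PR2, -2.40 for ALD1 and -0.53 for EDS1 on the log2 scale, and none passed the adjusted threshold in edgeR (adjusted p = 0.456, 0.564, 0.811 and 0.734). In T43-11, whose libraries were nearly equal, these ratios were -0.78, -0.07, -0.05 and -0.11. The added row T43, which no comparison used, had 32.5 CPM of gene reads in T43-11 at 0 mM and 33.6 at 75 mM, and 0 reads in both libraries of Col-0. No sample of a group of 4 lay far enough from the rest to be listed, in 20 groups examined.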

How the results depend on the processing

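Of the repeated values for single genes, 540 kept their direction, and their side of the threshold where an adjusted p was given. A further 36 changed sign, 23 newly passed and 1 was lost. Among the counts, 104 were equal to the main one or within 1.5 times of it, and 36 moved beyond that. The cause was not tested unless named. With DESeq2, 1 of the 10 genes passed for salt in 4 lines, 2 for VP16 at 0 mM, 1 at 75 mM and 3 for the difference of salt responses. Over all genes DESeq2 passed 1791 for salt in 4 lines (0 in edgeR), 4053 in 3 lines (6142), 229 for VP16 at 0 mM (7), 385 at 75 mM (3), 50 for the difference (0), and 28 and 18 for 3F-VP16 over both salt levels and at 75 mM (0 and 0). Without a filter on low counts VP16 at 0 mM gave 1 of the 10 genes and 25 of all. With the VP16-only line and T31-5 summed as 1 line, all genes passing were 2778 for salt in 3 lines and 0 and 0 for VP16 at 0 and 75 mM, and PR2 was at 0.41 and 0.56 for salt in 4 and 3 lines. The no replicate block fit gave 4 genes for the difference of salt responses, and removing the block changed no other call beyond 1.5 times. A prior count of 5 left 1 of the 10 past 2-fold for T43-11 against Col-0 at 75 mM.

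Leaving out each line in turn gave 0 to 1 of the 10 genes for salt in 4 lines, 0 to 5 in 3 lines, 0 to 5 for VP16 at 0 mM, 0 to 2 at 75 mM and 0 to 3 for the difference, the highest without T43-11 except in 3 lines, where it was without Col-0. Over all genes the ranges were 0 to 6142 (salt, 4 lines), 2056 to 7942 (3 lines), 0 to 2183 (VP16 at 0 mM), 0 to 2973 (75 mM), 0 to 819 (difference), 0 to 2 (3F-VP16, both salt levels) and 0 to 173 (3F-VP16 at 0 mM). Log2 fold changes that changed sign ranged, for salt in 4 lines, from -1.14 to 0.66 (PR2) and -0.093 to 0.11 (ICS1), and in 3 lines from -1.58 to 1.04 (PR2) and -0.077 to 0.21 (ICS1). For VP16 at 75 mM they ranged from -0.32 to 0.064 (PR5) and -0.024 to 0.083 (EDS1). For 3F-VP16 over both salt levels they ranged from -3.81 to 2.01 (PR1), -0.068 to 1.49 (PR2), -1.17 to 0.72 (PR5), -0.10 to 0.063 (ICS1), -0.0041 to 0.31 (EDS1), -0.32 to 2.96 (ALD1) and -0.19 to 0.19 (SARD1). At 0 mM they ranged from -4.30 to 5.09 (PR1), -0.71 to 5.10 (PR2), -2.19 to 1.24 (PR5), -0.035 to 0.11 (ICS1), -0.15 to 0.53 (EDS1) and -0.82 to 3.95 (ALD1), and at 75 mM from -0.017 to 1.32 (PR2), -0.31 to 0.13 (ICS1), -0.046 to 0.22 (PAD4) and -0.20 to 0.63 (FMO1). Depth limits ALD1 and PR1 most, with 1 and 4 reads in Col-0 without salt.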
